A study of Mus musculus with 4 samples.

Results

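Antisense noncoding genes are annotated on the strand opposite to another gene, and 152 of them were expressed in mouse bone marrow-derived macrophages by the rule used here. The rule took genes of biotype antisense with at least 20 raw counts in 2 or more of the 4 libraries and left out Malat1, Neat1, Gas5 and the host genes of small RNAs. The deposited table holds 54532 genes, of which 2826 have the biotype antisense and 1259 of those had at least 1 count. At the threshold, 1 gene had a second-highest count of exactly 20 and was kept, and 4 antisense genes with a second-highest count of 19 were not. Trmt61b carries the name of a protein-coding gene but the biotype antisense, and was kept by the rule.

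Marrow cells of Mus musculus had become macrophages over 7 days in medium with 30% of a supernatant conditioned by L929 cells, a fibroblast line that secretes M-CSF. They then received, over 24 h, either mimics that serve as negative control (2 libraries) or mimics of miR-204-3p (2 libraries), which are synthetic RNAs made to act as that microRNA. All groups thus share the culture and a transfection, and no untransfected library was analysed. The labels give no strain, age or sex and leave unsaid whether libraries of one group stem from different animals or cultures.

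Antisense RNAs can act in cis on the gene they overlap, for example by recruiting chromatin modifiers, by colliding with its transcription or by pairing with its transcript. Others start from a promoter shared with a gene that runs the opposite way and act in trans or have no known role. Most are present at low levels and many are retained in the nucleus.

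The mature microRNA whose mimic was transfected is given first, since its seed (bases 2 to 8, in capitals) defines the letters searched for in the antisense transcripts. It is RefSeq's sequence on GRCm38.p6, at chr19:22750649-22750669 on the plus strand, and 21 bases long.

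mmu-miR-204-3p: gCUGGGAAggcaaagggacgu

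The DNA letters complementary to the seed are TTCCCAG, and 47 of the 152 antisense genes (30.9%) held them in an annotated GENCODE vM21 transcript, in the sense direction. Among the 2672 other antisense genes with transcripts the share was 19.2%. Their transcripts were shorter, with a median longest transcript of 797 bases against 1824, and the density of matches was 0.182 per kb against 0.174 in the expressed genes. A match is a run of letters and not a shown site of binding. The 6 windows below belong to antisense genes described further on, 3 that rose and 3 that fell, and capitals mark the match. In 4930455G09Rik the capitals also take in the A that follows, as the match there has 8 letters (TTCCCAGA). Each window shows the first match in the longest transcript that held one, and a gene can hold more. Gm16754 held up to 2 matches in a transcript. The match begins at base 4941 of 10812 in AC127341.3, at base 20 of 1612 in Tug1, at base 1979 of 2099 in 1600020E01Rik, at base 897 of 2428 in 5830432E09Rik, at base 456 of 2077 in Gm16754 and at base 545 of 630 in 4930455G09Rik.
AC127341.3: gctcctccagtTTCCCAGcagttctgtaag
Tug1: gccctcgggccTTCCCAGgcctgggtcctg
1600020E01Rik: ccagagatcaaTTCCCAGcatccatccctg
5830432E09Rik: agagaagctgaTTCCCAGcatgtcaaggtc
Gm16754: cctgcctaaacTTCCCAGtgaaggtggggt
4930455G09Rik: caatctacaaaTTCCCAGAgtgtctgtgac

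Another 3 sequences were taken around the annotated starts of an antisense gene and its sense gene. They are RefSeq promoter windows of GRCm38.p6 (250 bases before to 50 after the start of the named gene), chosen because each holds the start of both genes as the deposited coordinates give them. Capitals run from one start to the other. The Hmga1 window is chr17:27556324-27556623 (plus strand), the Pcbp1 window chr6:86526140-86526439 (minus strand) and the Oasl1 window chr5:114922990-114923289 (plus strand).
Hmga1 and AC127341.3: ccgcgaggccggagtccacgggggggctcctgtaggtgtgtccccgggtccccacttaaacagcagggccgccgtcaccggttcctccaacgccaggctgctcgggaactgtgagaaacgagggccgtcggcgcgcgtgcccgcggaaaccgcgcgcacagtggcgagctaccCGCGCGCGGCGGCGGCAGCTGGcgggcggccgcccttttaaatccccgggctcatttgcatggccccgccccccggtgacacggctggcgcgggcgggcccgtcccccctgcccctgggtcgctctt
Pcbp1 and 1600020E01Rik: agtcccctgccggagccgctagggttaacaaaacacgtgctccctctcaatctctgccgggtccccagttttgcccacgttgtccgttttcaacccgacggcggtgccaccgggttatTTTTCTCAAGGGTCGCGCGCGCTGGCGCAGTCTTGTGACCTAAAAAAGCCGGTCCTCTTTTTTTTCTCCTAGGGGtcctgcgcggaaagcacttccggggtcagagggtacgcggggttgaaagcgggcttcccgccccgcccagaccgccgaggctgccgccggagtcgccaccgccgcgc
Oasl1 and Gm13822: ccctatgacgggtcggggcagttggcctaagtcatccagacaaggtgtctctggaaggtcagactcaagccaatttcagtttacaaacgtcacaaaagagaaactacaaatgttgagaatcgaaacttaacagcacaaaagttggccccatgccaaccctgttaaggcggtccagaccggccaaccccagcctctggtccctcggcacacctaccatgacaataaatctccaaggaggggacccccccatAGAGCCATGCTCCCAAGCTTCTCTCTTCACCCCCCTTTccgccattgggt

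The control libraries held 16446212 and 15899235 counts, and those of the miR-204-3p mimic 16837826 and 16295262. The antisense genes with the threshold count took 7371 and 7210 of these in the controls and 12964 and 12642 with the miR-204-3p mimic. All rows of biotype antisense held 0.0584% and 0.0578% of counts in the controls and 0.100% and 0.102% with the mimic. Macrophage markers were present in every library, but their summed level was 17172 and 19031 CPM (counts scaled to a common library size, with TMM factors) in the controls and 3439 and 3455 CPM with the mimic, and 8 of the 9 tested markers were lower. B cell markers summed to 250 and 225 CPM in the controls and 3.38 and 3.71 CPM with the mimic, while Ms4a1 was at 0 in all libraries. The T and NK cell markers went from 5.06 and 4.40 CPM to 28.2 and 27.2 CPM, with Cd3e, Cd3g and Nkg7 at 0. Neutrophil markers summed to 136 and 177 CPM in the controls and 1.09 and 1.47 CPM with the mimic, with Ly6g at 0. Dendritic cell markers summed to 46.8 and 38.0 CPM against 4.37 and 4.58 CPM. Mast cell markers summed to 0.139 and 0.568 CPM in the controls and 2.18 and 2.24 CPM with the mimic, where the 1 tested marker was higher, with Mcpt4 at 0. Fibroblast and erythroid markers were at or below 0.436 CPM in sum, with Col3a1 at 0. The part of these marker differences in the results below was not tested, and fewer cells of a type cannot be told apart from less RNA per cell in bulk samples.

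Of the 152 antisense genes, 138 overlapped a gene on the opposite strand by the deposited coordinates, 42 overlapped more than 1, and 14 overlapped none. With several, the one with the most counts was taken as the sense gene, and it was protein-coding in 133 cases. The 2 genes were head to head, with overlapping starts, in 51 pairs, of which 33 had starts within 1000 bases of each other. In 44 pairs the antisense gene lay inside the sense gene, in 32 the pair was tail to tail, and in 11 the antisense gene spanned the sense gene. The median antisense gene had 3 exonic blocks, and 27 had a single block.

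Counting was not stated to use strand, and the library kit named in the labels is not given as a strand-marking one, so reads of an antisense gene and of its sense partner cannot be told apart where they overlap. This overlap was measured in GENCODE vM21. The median antisense gene had 8.53% of its exonic bases inside exons of an opposite-strand gene, 41.5% inside introns of one and 39.7% outside any. For 38 genes no base lay in an opposite exon, and for 3 genes (9130221H12Rik in Gsk3a, 1110002L01Rik in Asxl2 and Gm17201 in Ankrd52) over 50% did. For 69 genes over 50% of the exonic bases lay in opposite introns, and 19 lay there wholly. A further 12 genes shared bases with exons of a gene on their own strand.

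**Figure D1:**
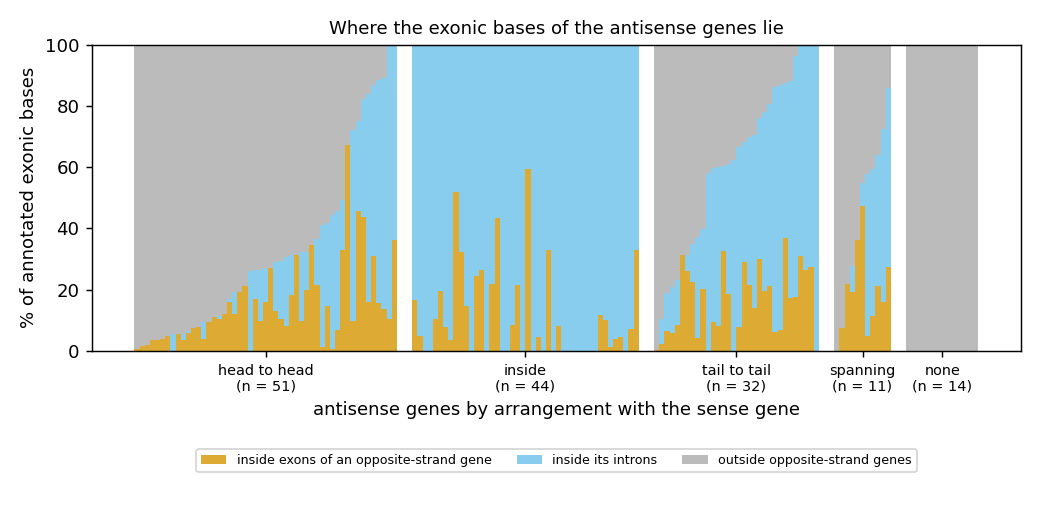
Each bar is 1 of the 152 antisense genes, and its height is divided into the percent of annotated exonic bases inside exons of an opposite-strand gene, inside its introns and outside such genes. Genes inside a sense gene have no base outside it, most head-to-head genes have part of theirs outside, and the 14 genes with no opposite-strand partner lie wholly outside.

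Per length, their median level was 1.16 CPM per kb, against 8.11 for the tested sense genes. In 103 of 122 pairs with a tested sense gene the antisense gene was the lower of the pair, and the median ratio of sense to antisense was 7.42. This direction is partly set by the choice of pairs, since the partner was the overlapping gene with the most counts and 16 sense genes too low to be tested were left out. The 5 antisense genes with the highest level per length, among those with at least 20 counts in every library, were Gm17201 (23.5 CPM per kb), 4930455G09Rik (22.1), Gm16124 (19.7), Gm40304 (15.4) and 4930430E12Rik (11.9). All 5 are short gene models of 268 to 1135 exonic bases.

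Expression of the antisense genes in the miR-204-3p mimic libraries against the control libraries was tested with edgeR's quasi-likelihood test, fitted on all 13186 genes that passed the low-count filter and adjusted over them by Benjamini and Hochberg. A gene that reached 20 counts only in the libraries of one group had to differ in order to be chosen, so only the 91 genes that reached it in libraries of both groups are read by this test. Of these, 22 were higher (24.2%, against 31.1% of all tested genes) and 12 were lower (13.2%, against 29.7%). The other 57 did not pass the threshold of 0.05. Of the 91, 27 had under 20 counts in at least 1 library, so the choice of these can rest in part on the higher group. Kcnq1ot1, Gm13822, Gm30025 and A430057M04Rik, described below, are among these 27. Among the 64 genes with at least 20 counts in all 4 libraries, 16 were higher (25%) and 10 were lower (15.6%). Sense genes said below to have risen, fallen or been called are read by the same test. The control and mimic values did not overlap for 59 of the 91 (64.8%, against 80.7% of all tested genes). Both shares of called genes were thus below those of the whole table, while the standard error of the log2 fold change was larger in these low-count genes, with a median of 0.34 against 0.17. The median log2 fold change was 0.09, against 0.04 over all tested genes, and the range ran from -2.87 to 2.89.

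With library size alone in place of TMM factors, the median log2 fold change of all tested genes moved by 0.36, and 30 antisense genes were higher (33.0%, against 46.6% of all tested genes) and 9 lower (9.89%, against 19.1%). All 22 higher calls and 9 of the 12 lower calls held there, and none of the called genes changed sign. The higher calls held in 13 cases, and the lower calls in 8, whichever library was left out. DESeq2 kept 16 of the higher and all 12 of the lower calls.

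**Figure D2:**
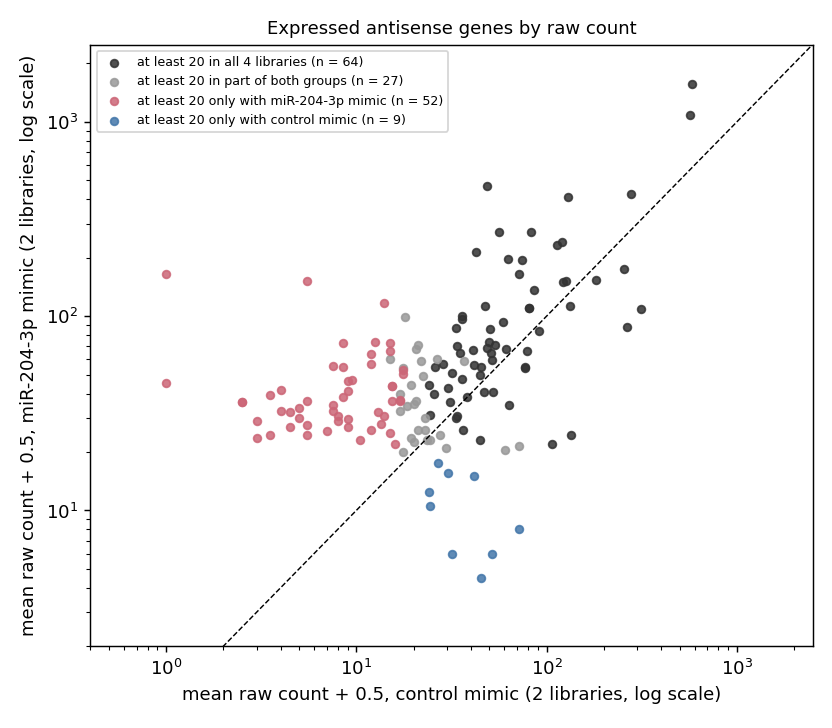
Each point is 1 of the 152 antisense genes, with its mean raw count plus 0.5 in the 2 control libraries on the x axis and in the 2 libraries of the miR-204-3p mimic on the y axis, both on log scales. The dashed line marks equal counts, and colours show in which libraries the gene reached 20 counts: 64 did in all 4, 27 in part of both groups, 52 with the miR-204-3p mimic only and 9 with the control mimic only.

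The antisense gene with the highest log2 fold change was AC127341.3 (ENSMUSG00000116657, chr17:27545707-27556518, minus strand), which starts 21 bases from Hmga1, a chromatin architectural protein, in the window printed above. It had 3.12 and 3.62 CPM in the controls and 28.6 and 21.3 CPM with the mimic, so that both mimic libraries lay well above both controls. The mean rose from 3.37 ± 0.356 to 24.9 ± 5.18 CPM (SD, n = 2 libraries each), a log2 fold change of 2.89 ± 0.24 (SE, edgeR, adjusted p = 1.35e-07). Hmga1 itself had 338 and 369 CPM in the controls and 561 and 369 CPM with the mimic, which did not pass (log2 0.40 ± 0.17, edgeR, adjusted p = 0.0526). Hmga1 did pass without mimic replicate 2 (log2 0.64), with library size alone (log2 0.76), with no filter on low counts (log2 0.38) and with the replicate number as a block (log2 0.37). Of the exonic bases of AC127341.3, 96.5% lay outside any opposite-strand gene.

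Bach2os lies inside Bach2, a transcription factor gene of lymphoid cells, whose own counts of 1, 3, 10 and 29 did not pass the filter for testing. Bach2os had 31 and 53 counts in the controls and 226 and 199 with the mimic, and rose by 1.93 ± 0.28 on the log2 scale (edgeR, adjusted p = 3.96e-05). Gm17201 lies inside Ankrd52, a regulatory subunit of protein phosphatase 6, and has 59.5% of its exonic bases in exons of that gene. Its counts were 70 and 42 against 267 and 273, without overlap (log2 1.87 ± 0.26, edgeR, adjusted p = 2.18e-05), and Ankrd52 rose by 1.45 ± 0.13. For this gene, reads of Ankrd52 and of Gm17201 cannot be told apart over most of the antisense model.

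Tug1, known from the mouse retina and as a nuclear RNA that several studies tie to chromatin regulation, starts 179 bases from Morc2a, a chromatin-associated ATPase. Tug1 was the most abundant of the named antisense genes by count, with 598 and 562 counts in the controls and 1664 and 1477 with the mimic. Both mimic libraries exceeded both controls, and the mean rose from 40.7 ± 1.08 to 83.5 ± 4.22 CPM (SD, n = 2 each; log2 1.04 ± 0.13, edgeR, adjusted p = 1.04e-05). Morc2a rose by 1.53 ± 0.13. Of the exonic bases of Tug1, 4.96% lay in opposite exons.

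1600020E01Rik (chr6:86526247-86582466, plus strand) starts 74 bases from Pcbp1, which encodes a poly(rC)-binding protein, in the window printed above. It had 80 and 85 counts in the controls and 245 and 295 with the mimic, and rose by 1.31 ± 0.23 on the log2 scale (edgeR, adjusted p = 0.000172). Pcbp1 had 5228 and 5306 counts in the controls and 5489 and 4356 with the mimic, and its log2 fold change was -0.50 ± 0.13 (edgeR, adjusted p = 0.00435). Raw counts of Pcbp1 overlap between the groups, while its scaled values (362 and 377 CPM against 285 and 237 CPM) do not. With library size alone Pcbp1 did not pass (log2 -0.14, edgeR, adjusted p = 0.38).

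Gm26947 (137 and 122 counts against 414 and 402) rose by 1.26 ± 0.19 on the log2 scale (edgeR, adjusted p = 5.07e-05). Gm16536 (54 and 71 against 168 and 226) rose by 1.26 ± 0.27 (edgeR, adjusted p = 0.000971), as did Bace1, the beta-secretase gene it lies inside, by 1.43 ± 0.24. A530040E14Rik (40 and 31 against 102 and 98) rose by 1.09 ± 0.30 (edgeR, adjusted p = 0.00558). The groups did not overlap for any of these 3 genes, and each call held in all 4 fits that left out a library.

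In 3 further genes the call was lost when 1 library was left out. Gm47815 (26 and 45 counts against 105 and 87, log2 1.03 ± 0.33, edgeR, adjusted p = 0.0142) did not pass without control replicate 1 (log2 0.67) or without mimic replicate 1 (log2 0.92). E130307A14Rik (44 and 22 against 74 and 99, log2 1.00 ± 0.36, edgeR, adjusted p = 0.0268) did not pass without control replicate 2 (log2 0.60) or mimic replicate 2 (log2 0.70), nor by DESeq2 (adjusted p = 0.070). Gm16124, head to head with the cullin gene Cul5, had 106 and 120 counts against 193 and 270 (log2 0.64 ± 0.24, edgeR, adjusted p = 0.0307) and did not pass without control replicate 1 (log2 0.54) or mimic replicate 2 (log2 0.31), nor by DESeq2 (adjusted p = 0.064).

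**Figure D3:**
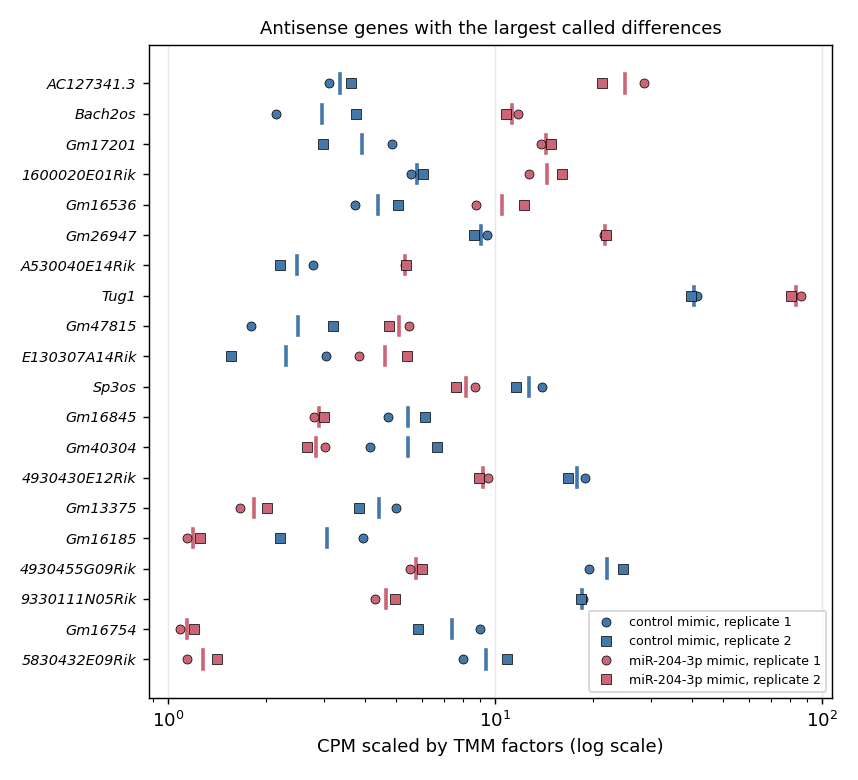
Expression of the 10 antisense genes with the largest called rises and the 10 with the largest called falls among those with at least 20 counts in every library, in CPM scaled by TMM factors on a log axis. Circles and squares are the libraries of replicates 1 and 2, blue for the control and red for the miR-204-3p mimic, and vertical bars are means of 2 libraries. AC127341.3 lies at 3.12 and 3.62 CPM in the controls and at 28.6 and 21.3 CPM with the mimic.

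The antisense gene with the lowest log2 fold change was 5830432E09Rik (chr7:135635931-135652314, minus strand), which lies inside Ptpre, a receptor-type tyrosine phosphatase gene, with 96.6% of its exonic bases in introns. It had 115 and 153 counts in the controls and 22 and 26 with the mimic, which do not overlap. The log2 fold change was -2.87 ± 0.31 (edgeR, adjusted p = 2.3e-06), and Ptpre fell alongside it (log2 -2.45 ± 0.19). Gm16754 (chr9:21225371-21233046, plus strand) is tail to tail with Keap1, the adaptor that targets Nrf2 for degradation. Its counts were 130 and 82 in the controls and 21 and 22 with the mimic, both mimic values lying below both controls (log2 -2.69 ± 0.34, edgeR, adjusted p = 1.06e-05). Keap1 fell by 0.35 ± 0.12 with TMM factors, but stood at 0.02 with library size alone and did not pass without control replicate 1 (log2 -0.29, edgeR, adjusted p = 0.139).

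9330111N05Rik had 268 and 259 counts in the controls and 83 and 91 with the mimic, a fall of log2 -1.99 ± 0.21 (edgeR, adjusted p = 2.07e-06). 4930455G09Rik overlapped no opposite-strand gene in the deposited coordinates and had 281 and 348 counts against 106 and 110 (log2 -1.94 ± 0.21, edgeR, adjusted p = 2.36e-06). Gm13375 (72 and 54 counts against 32 and 37, log2 -1.26 ± 0.33, edgeR, adjusted p = 0.00478) and 4930430E12Rik (272 and 236 against 183 and 164, log2 -0.95 ± 0.20, edgeR, adjusted p = 0.000788) also fell, again with no opposite-strand partner. All 3 had lower counts in both mimic libraries than in both controls.

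The remaining 4 of the 10 falls were less firm. Gm16185, inside the mitochondrial carrier gene Slc25a36, had 57 and 31 counts against 22 and 23 (log2 -1.36 ± 0.41, edgeR, adjusted p = 0.0101) and did not pass without control replicate 1 (log2 -0.87). Gm40304, inside Rbpj, had 60 and 94 against 58 and 49 (log2 -0.93 ± 0.31, edgeR, adjusted p = 0.0197) and did not pass without control replicate 2 (log2 -0.55) or mimic replicate 2 (log2 -0.87). Gm16845, spanning Ecsit, had 68 and 86 against 54 and 55 (log2 -0.90 ± 0.29, edgeR, adjusted p = 0.0161) and did not pass without control replicate 2 (log2 -0.70) or mimic replicate 1 (log2 -0.85). Sp3os, head to head with the transcription factor gene Sp3, had 201 and 163 against 167 and 140 (log2 -0.64 ± 0.22, edgeR, adjusted p = 0.0182) and did not pass without control replicate 1 (log2 -0.50) or mimic replicate 2 (log2 -0.58). With library size alone the last 3 did not pass, at log2 -0.56, -0.53 and -0.28.

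A list of 30 antisense RNAs with published roles held 13 rows of biotype antisense, and 4 of these were expressed by the rule. Tug1 is described above. Kcnq1ot1, the imprinted RNA that silences genes around Kcnq1, had 25 and 10 counts in the controls and 88 and 108 with the mimic, and rose by 2.09 ± 0.40 (edgeR, adjusted p = 0.0004). Both mimic libraries were above both controls, but spread over a model of 93092 bases this was 0.0347 CPM per kb, and Kcnq1 itself had at most 3 counts in any library. Hotairm1, an RNA described in human myeloid differentiation, had 139 and 126 counts in the controls and 89 and 137 with the mimic. The raw counts overlap, while the scaled values (9.63 and 8.95 CPM against 4.63 and 7.47 CPM) do not. Its log2 fold change of -0.62 ± 0.26 did not pass (edgeR, adjusted p = 0.053), but did without mimic replicate 2 (log2 -1.03, edgeR, adjusted p = 0.00347). Airn, the imprinted antisense RNA of Igf2r, had 51 and 31 counts in the controls and 13 and 16 with the mimic, below the threshold of 20 with the mimic. It is given without a test, and Igf2r rose by 0.96 ± 0.13 (edgeR, adjusted p = 1.5e-05).

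Of the 91 genes, 70 had a sense gene that was tested. In 45 of the 70 pairs (64.3%) both fold changes had the same sign, against 56.6% of all 1622 pairs of tested genes that overlap on opposite strands. Spearman's rho between the fold changes was 0.38 and Pearson's r 0.43 across the 70 pairs, against a rho of 0.16 across all pairs. These are across genes of the same 4 libraries, and both members of a pair share those libraries and possibly reads. Antisense and sense were both higher in 9 pairs and both lower in 4. They were called in opposite directions in 4 pairs, and in 28 the sense gene alone was called (18 higher, 10 lower). In 8 pairs only the antisense gene was called (6 higher, 2 lower), and in 17 neither was. Over all tested genes 31.1% were higher and 29.7% lower. Joint calls were not counted over all pairs, so whether these numbers are unusual is not known.

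Whether the 2 genes of a pair changed by unlike amounts was tested with limma on the log2 ratio of antisense to sense per library, a quantity that does not depend on the scaling of a library. The ratio differed in 21 of the 70 pairs (30%, against 52.8% of all 1622 pairs), higher in 10 and lower in 11. Fewer of these pairs passed in each direction without mimic replicate 2, a fit for which the share over all pairs is not given. The median standard error of the ratio difference was 0.38.

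The pairs with a higher ratio and the lowest p included AC127341.3 with Hmga1 (log2 ratio difference 2.46 ± 0.22, limma, adjusted p = 2.34e-05) and 1600020E01Rik with Pcbp1 (1.79 ± 0.26, limma, adjusted p = 0.00034). Both pairs have their annotated starts in windows printed above. In Gm45606, head to head with the amino acid transporter gene Slc43a2, the antisense counts were 41 and 48 against 49 and 59 and not called. Slc43a2 went from 3759 and 3346 counts to 811 and 733 counts (log2 -2.60 ± 0.13), and the ratio rose by 2.47 ± 0.34 (limma, adjusted p = 0.000272). Gm12454 with Car9, a carbonic anhydrase gene, showed 26 and 21 antisense counts against 49 and 38, not called, while Car9 fell by 1.84 ± 0.27 (ratio 2.23 ± 0.38, limma, adjusted p = 0.000899). Gm15545, tail to tail with Bcl2l12, had 71 and 72 counts against 188 and 141, and its ratio rose by 1.42 ± 0.30 (limma, adjusted p = 0.00335). Its own rise (log2 0.80 ± 0.25, edgeR, adjusted p = 0.0121) did not pass without mimic replicate 1 (log2 0.61).

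Among the lower ratios, Gm16754 with Keap1 had a difference of -2.21 ± 0.34 (limma, adjusted p = 0.000539) and 9330111N05Rik with Gm18517 of -1.46 ± 0.25 (limma, adjusted p = 0.00108). Gm18517 is a transcribed processed pseudogene, taken as the most counted of 5 opposite-strand genes that 9330111N05Rik overlaps. A protein-coding gene among the 5 has the largest overlap. Gm40304 and Rbpj, the DNA-binding factor of Notch signalling, were called in opposite directions. Rbpj rose from 139 and 121 CPM to 228 and 268 CPM (log2 0.93 ± 0.13), and the ratio fell by 1.81 ± 0.36 (limma, adjusted p = 0.00247). All exonic bases of Gm40304 lie in Rbpj introns. C920021L13Rik with Ciart, a circadian repressor gene, had 48 and 21 antisense counts against 62 and 67, called only without control replicate 1 (log2 1.20, edgeR, adjusted p = 0.0242), while Ciart rose by 2.27 ± 0.21 (ratio -1.65 ± 0.41, limma, adjusted p = 0.00781). That ratio did not pass without mimic replicate 1 or mimic replicate 2 (adjusted p = 0.063 in both). For 1700008J07Rik with the chromatin remodeller gene Srcap the ratio difference was -1.49 ± 0.38 (limma, adjusted p = 0.00884), which did not pass without mimic replicate 1 (log2 -1.27). Tug1 rose less than Morc2a (ratio -0.49 ± 0.18, limma, adjusted p = 0.0464), but this did not pass without control replicate 1 (log2 -0.39), control replicate 2 (log2 -0.60) or mimic replicate 2 (log2 -0.34).

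A further 3 pairs were picked after their values were seen. Gm13822 starts 37 bases from Oasl1, an interferon-induced gene, in the third window printed above. It had 9 and 20 counts in the controls and 59 and 60 with the mimic (log2 1.63 ± 0.42, edgeR, adjusted p = 0.00417), while Oasl1 rose from 190 and 251 counts to 4140 and 4055 (log2 3.82 ± 0.16), so that the ratio fell by 2.23 ± 0.40 (limma, adjusted p = 0.00127). Gm30025, wholly within introns of Dcaf5, had 81 and 61 counts in the controls and 30 and 12 with the mimic (log2 -2.15 ± 0.40, edgeR, adjusted p = 0.000365), and Dcaf5 rose by 0.55 ± 0.14. A430057M04Rik (15 and 28 counts against 62 and 54) rose as Comtd1 fell by 0.68 ± 0.20 (log2 -0.32 and not called with library size alone), but its own call (log2 1.03 ± 0.39, edgeR, adjusted p = 0.034) was lost without control replicate 1 (log2 0.63), mimic replicate 1 (log2 0.95) or mimic replicate 2 (log2 1.06).

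**Figure D4:**
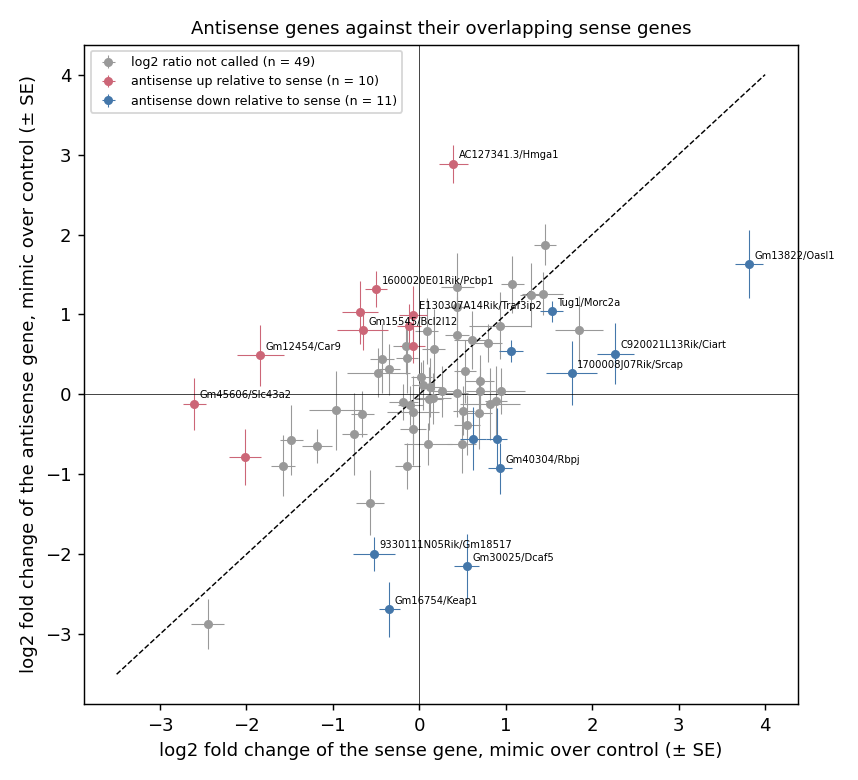
Each point is 1 of the 70 antisense genes with a tested sense gene, with the log2 fold change (miR-204-3p mimic over control, ± SE) of the sense gene on the x axis and of the antisense gene on the y axis. The dashed line marks equal change, and colours mark the 10 pairs whose log2 ratio was higher, the 11 whose ratio was lower and the 49 not called. Gm13822 and Oasl1 lie at 1.63 and 3.82, and AC127341.3 and Hmga1 at 2.89 and 0.40.

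By arrangement, 9 of 33 head-to-head genes were higher and 1 was lower, with a median log2 fold change of 0.17. Among 25 genes inside a sense gene 8 were higher and 4 lower (median 0.04), and among 16 tail-to-tail genes 4 were higher and 1 lower (median 0.38). Of the 8 spanning genes 0 were higher and 2 were lower (median -0.84), and of the 9 genes with no opposite-strand gene 1 was higher and 4 were lower (median -0.23). The shares of higher genes in these classes ran from 0% to 32%, against 31.1% of all tested genes, and those of lower genes from 3.03% (head to head) to 44.4% (no opposite-strand gene), against 29.7%. The 35 genes with over 50% of their exonic bases in opposite introns held 7 higher and 6 lower genes (median -0.05), and the other 56 held 15 and 6 (median 0.19). Over all tested genes the median was 0.04, and no difference between these classes was tested.

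The 28 genes with a TTCCCAG match had 10 higher (35.7%) and 4 lower members (14.3%) and a median log2 fold change of 0.37. Over all tested genes these shares were 31.1% and 29.7%. The 63 without one had 12 higher (19.05%) and 8 lower (12.7%) and a median of 0.04. The former have longer transcripts (median 2589 bases against 1415), and the difference was not tested. Kcnq1ot1 had the most matches, 12.

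RefSeq promoter windows of 300 bases were found for 81 of the 152 genes, and the letters of 3 motifs were counted on both strands, of which the first and second can share bases. The core of the interferon-stimulated response element was present in 7 of the 81 genes (8.64%) and in 3.99% of all 27025 genes with a window. The 7 genes were AI847159, 4930599N23Rik, 1600010M07Rik, 1700006J14Rik, Rab10os, Gm4117 and F630028O10Rik. Of these, 4 reached 20 counts with the miR-204-3p mimic only, 1 with the control only and 2 in all libraries. The STAT letters TTCNNNGAA were present in 4.94% of the genes, against 9.55% of all genes. The NF-kB core was present in 65.4%, against 53.5%. The 3 windows printed above hold neither the first nor the second motif.

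The 61 antisense genes that reached 20 counts in 1 group only were given by their counts, with no test. The miR-204-3p mimic group held 52 of them (34.2% of the 152) and the control group 9 (5.92%). Among 235 lincRNAs chosen by the same threshold the shares were 24.3% and 7.66%, and among 10859 protein-coding genes 3.65% and 1.77%. Such shares depend on how near to 20 counts the genes of a class lie, and the classes were not matched for this. The threshold was on raw counts, with no scaling by TMM factors. In the 52 genes the median of the mean count was 8 in the controls and 35.8 with the mimic.

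Gm17173 (chr14:44972268-45006900, minus strand) had the largest contrast in counts among these 61, with 1 and 0 counts in the controls and 149 and 181 with the mimic. It spans Ptger2, a prostaglandin E2 receptor gene, which had 0 and 0 counts against 4 and 4. Gm16587, inside the P-selectin gene Selp, had 2 and 8 counts against 137 and 166, and Selp rose from 8 and 7 to 130 and 113 counts (log2 3.60 ± 0.38, edgeR, adjusted p = 1.6e-06). With 21.6% of the Gm16587 exonic bases in Selp exons and 78.4% in its introns, no exonic base of it is free of the Selp gene.

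3010003L21Rik, head to head with Sinhcaf, had 14 and 13 counts against 127 and 106, while Sinhcaf was not called (log2 0.04 ± 0.16), though it was with library size alone (log2 0.40, edgeR, adjusted p = 0.039). Gm4117, tail to tail with the DNA repair gene Xrcc4 and wholly in opposite introns, had 8 and 8 against 69 and 75, with Xrcc4 not called (log2 -0.27 ± 0.18). For both antisense genes the mimic counts lie above the controls by the rule that chose this class.

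4732471J01Rik, which spans a cluster of 7 opposite-strand genes, had 19 and 4 counts against 72 and 55, and Ceacam1, the most abundant of the 7, went from 344 and 419 counts to 1441 and 1408 (edgeR, adjusted p = 9.9e-07). Gm11696 beside Gna13 had 16 and 13 against 57 and 88, 2610020C07Rik beside Gspt1 had 9 and 14 against 64 and 49, and Gm17435 beside Med26 had 13 and 16 against 69 and 63. None of the sense genes Gna13, Gspt1 and Med26 was called, though Gspt1 was with library size alone (log2 0.40, edgeR, adjusted p = 0.0115). Mypopos had 18 and 16 counts against 38 and 67, and Mypop rose by 0.95 ± 0.37 (edgeR, adjusted p = 0.04), but did not pass without control replicate 1 (log2 0.56) or mimic replicate 1 (log2 0.75), nor by DESeq2 (adjusted p = 0.11). Of the 44 sense genes tested in this class, 17 were higher (38.6%, against 31.1% of all tested genes) and 9 lower (20.5%, against 29.7%).

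Of the 9 genes that reached the threshold with the control mimic only, Gm15880 inside Crtc3, a CREB coactivator gene, had 74 and 68 counts in the controls and 11 and 4 with the mimic, while Crtc3 rose by 0.54 ± 0.14. Rptoros, inside the mTORC1 subunit gene Rptor, had 41 and 48 against 3 and 5, while Rptor rose by 0.39 ± 0.12. The Rptor call was lost without control replicate 1 (log2 0.38), control replicate 2 (log2 0.39) or mimic replicate 2 (log2 0.30). Gm26542, tail to tail with the Notch coactivator gene Maml1, had 57 and 45 against 1 and 10, while Maml1 rose by 1.35 ± 0.14. In these 3 the sense gene rose, as for Airn and Igf2r. That the mimic counts lie below the controls holds for every gene of this class by the rule that chose it.

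Gm28529 with Epc1, a chromatin gene, had 26 and 22 counts against 17 and 3, and Epc1 rose by 0.96 ± 0.16. F630028O10Rik, which overlapped no opposite-strand gene, had 33 and 30 against 8 and 3. 1810021B22Rik had 30 and 30 against 13 and 17, and its sense gene Trabd fell by 0.81 ± 0.13. Gm10602 (26 and 27 against 18 and 16) and 2510046G10Rik (24 and 23 against 5 and 19) lay close to the threshold, and their sense genes Inppl1 and Sgf29 were not called. Of the 8 sense genes tested in this class, 5 were higher (62.5%, against 31.1% of all tested genes) and 1 lower (12.5%, against 29.7%).

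**Figure D5:**
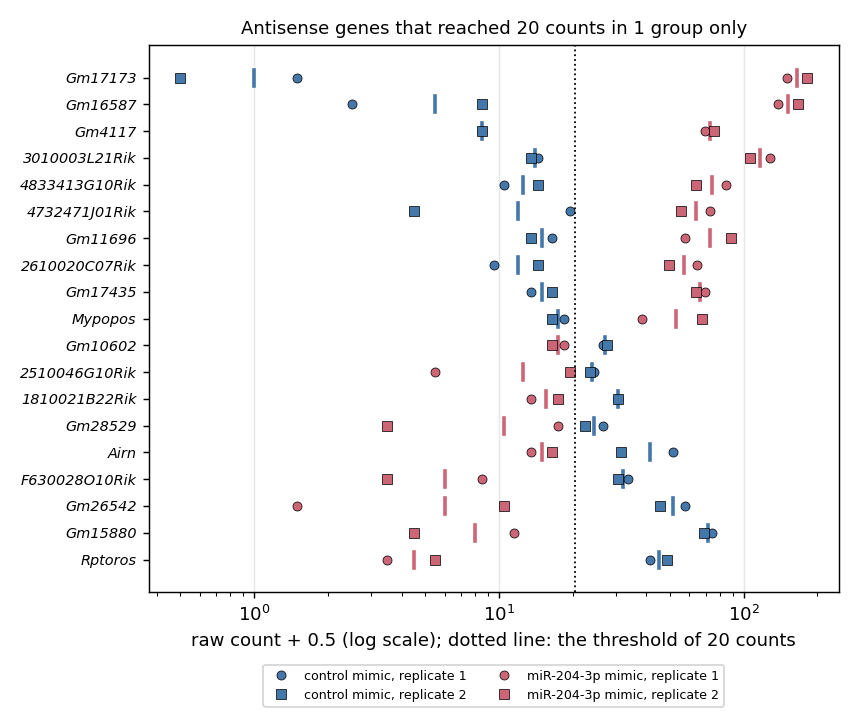
Raw counts plus 0.5 on a log axis of 19 antisense genes that reached 20 counts in 1 group only: the 10 with the highest summed count among the 52 of the miR-204-3p mimic group and all 9 of the control group. Circles and squares are replicates 1 and 2, vertical bars are means, blue is the control and red the miR-204-3p mimic, and the dotted line marks 20 counts. Gm17173 lies at 1 and 0 counts in the controls and 149 and 181 with the mimic.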

How the data were processed

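The authors deposited raw counts per gene, whole numbers for 4 libraries, with symbol, biotype, coordinates and gene length in bases (another column, used for levels per kb), per the file headers. Reads were aligned with HISAT2 to mm10, per the submitters' processing notes, and the library kit was NEBNext Ultra RNA, per the labels' protocols. The counting program, its strand setting and versions are not given in the sources used here.

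Genes of biotype antisense with at least 20 counts in 2 or more libraries were taken. The genes and the lists were chosen with earlier results of these data known. edgeR 4.0.16 in R 4.3.3 was run on the whole table (filterByExpr, TMM, glmQLFit and glmQLFTest with group alone, two-sided), and p-values were adjusted by Benjamini-Hochberg at 0.05. The SE printed with an edgeR log2 fold change was derived from the test itself, as the absolute log2 fold change divided by the square root of F. Log2 ratios of antisense to sense CPM (prior count 2) were tested with limma 3.58.1 over all opposite-strand pairs. The scripts were tested on simulated data. Exons came from GENCODE vM21, where 149 of the 152 genes have the same coordinates. Named genes are, among those with at least 20 counts in every library, the 10 largest called rises and falls with groups apart, the 5 highest per kb and up to 5 lowest ratio p-values each way, plus up to 10 genes per group reaching the threshold there only (by summed count), published antisense RNAs and all sense partners. Gm13822, Gm30025 and A430057M04Rik, the genes listed for their exon overlap and those listed for a promoter motif fall outside this rule and were picked after their values were seen, and a few named items are not reported here.

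A count of 0 in a library allows up to 3 counts (0.178 to 0.189 CPM), and such intervals cover counting error only, since PCR copies are not independent. No label states that libraries of one group are separate cultures: the p-values then reflect the spread among these samples alone, and that spread may be technical. With 2 libraries against 2, an exact permutation test of a single gene could not go below 0.333. Alternatives were DESeq2 1.42.0, library size alone, other filters, thresholds and partners, a replicate block and leaving out each library.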

Additional observations from a re-analysis of the deposited data

How the results depend on the processing

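The 22 higher and 12 lower calls among 91 antisense genes moved with the threshold that chose the genes: at 10 counts they were 37 and 20 of 178, and at 50 counts 12 and 6 of 36. Counting only the 48 genes with under 10% of exonic bases in opposite exons gave 12 higher and 9 lower (25% and 18.8%, against 24.2% and 13.2%). In settings chosen after seeing the data, a mean of 20 counts gave 46 higher and 17 lower of 127, and all 152 genes gave 62 higher and 20 lower. The 152 include the 61 genes that reached 20 counts in 1 group only, and the 127 are likewise not limited to genes of both groups. Genes of 1 group only had to differ to be chosen, so calls in these settings are set in part by the choice. With the threshold the shares moved from 20.8% higher and 11.2% lower at 10 counts to 33.3% and 16.7% at 50 counts. Over all tested genes they were 31.1% and 29.7%. What causes these differences was not tested. Leaving out 1 library gave 16 to 20 higher and 10 to 13 lower calls, ratio calls of 5 to 10 higher and 7 to 13 lower, and same-sign shares of 57.1% to 62.9%. An arm left with 1 library was assumed to vary like the other.

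Same-numbered replicates of the 2 groups did not deviate together (correlation 0.024). This does not tell whether they share an animal or culture, which the labels leave unsaid. With the replicate block 22 genes were higher and 13 lower, and the ratio was higher in 10 pairs and lower in 12. The shares over all tested genes and all pairs are not given for this block. Hotairm1 (log2 -0.65, edgeR, adjusted p = 0.0346) and Hmga1 (log2 0.37, edgeR, adjusted p = 0.0414) passed under it.

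With library size alone the sign turned in 15 of the 91 antisense genes, none of them called. Among the named genes and their sense genes, Keap1 stood at 0.015, Ecsit at 0.22, Gm45606 at 0.24 and Traf3ip2 at 0.29 in that setting. Leaving out 1 library gave a log2 fold change of -0.32 to 0.038 for Gm45606, -0.15 to 0.57 for 1700008J07Rik and -0.19 to 0.014 for Traf3ip2. The cause was not tested. Slc25a36 did not pass with library size alone (log2 -0.20) or without control replicate 1 (log2 -0.40). The low counts of the antisense genes limit the precision, with a median SE of 0.34 on the log2 scale.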
